A study of Mus musculus with 2 samples.

Results

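The genes described here encode the vacuolar proton pump (V-ATPase) and proteins of the lysosomal membrane. They were chosen by name: every gene measured by an array feature with a single symbol beginning Atp6v0, Atp6v1 or Atp6ap, together with Tcirg1, Clcn7, Ostm1, Mcoln1, Lamp1, Lamp2, Scarb2, Npc1, Laptm4a, Laptm5 and Lamtor1 to Lamtor5. The rule found 40 of the 22180 named genes on the array. It took in Atp6v1fnb by the letters of its symbol alone, with no role given here, and Atp6v0c, the gene of the main proton-carrying ring subunit, was not analysed here.

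The samples were alveolar macrophages, the resident phagocytes of the air spaces, taken by flow sorting from the lungs of mice 8 to 10 weeks old. There were 2 Affymetrix arrays. One came from Lysm-Cre Ssu72fl/fl mice, in which Cre recombinase meets a floxed allele of Ssu72, a phosphatase gene of the RNA polymerase II tail, and the other came from Lysm-Cre mice, so both genotypes carry Cre. Lysm-Cre is active in myeloid cells generally and not in alveolar macrophages alone, and the labels do not say how many mice lie behind each array. The comparison asks how the transcripts of these cells differed between the genotypes. With 1 array per genotype there is no replicate check: no test was run, no spread between animals can be given, and having so few arrays limits the precision. Fewer cells of a type and less RNA per cell cannot be told apart in such sorted bulk samples.

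The V-ATPase is a rotary pump that acidifies lysosomes, endosomes and phagosomes. Its peripheral V1 domain hydrolyses ATP, and its membrane V0 domain carries protons across the bilayer. The acid interior activates hydrolases, while the glycoproteins, channels, transporters and signalling adaptors of the limiting membrane protect it, balance charge, export nutrients and recruit the growth kinase mTORC1. In macrophages this system digests what the cell engulfs, and alveolar macrophages handle inhaled particles and surfactant with it.

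Levels are the log2 values deposited by the authors, and a difference is the level on the Lysm-Cre Ssu72fl/fl array minus that on the Lysm-Cre array. A floor was set at the median of all values, 4.65, and genes above it on 1 or both arrays were compared. Of the 40 members, 34 were above the floor on both arrays and 6 were below it on both. Ssu72 itself was at 4.998 on the Lysm-Cre Ssu72fl/fl array and 4.862 on the Lysm-Cre array, a difference of 0.14. Where its probes lie relative to the floxed part of the gene is unknown here, so this value checks nothing, and every direction below rests on the label.

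Most V-ATPase and lysosomal membrane transcripts were somewhat lower on the Lysm-Cre Ssu72fl/fl array, and few by much. Of the 34 compared members 28 were lower and 6 higher, with a median difference of -0.12. Over all 13015 named genes compared, 51.9% were lower and the median was -0.0068. At least 1.5-fold lower were 2 members, Lamtor3 and Atp6v0b, and none was 1.5-fold higher. Among all named genes 1.37% reached that size on the lower side and 0.315% on the higher side. Both members were among the 8 with a mean level of 6 to 7, where 10.2% of named genes were at least 1.5-fold lower. With a smaller threshold of 0.322 on the log2 scale, 7 members were lower, against 6.23% of named genes of all levels. The 7 were Lamtor3, Atp6v0b, Atp6v0d2, Atp6v1c1, Atp6v1e1, Lamp1 and Atp6ap1, while Laptm4a (-0.319) and Atp6v1b2 (-0.315) fell just short. That share is not matched to level, and all but Atp6v1c1 and Atp6ap1 had mean levels above 6, where named genes were lower as a whole. After the trend adjustment described below, only Atp6v1c1 (-0.50) and Atp6v0b (-0.34) of the 7 remained past this threshold. The largest difference among the members, that of Lamtor3, corresponded to 0.633 times the Lysm-Cre level.

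**Figure D1:**
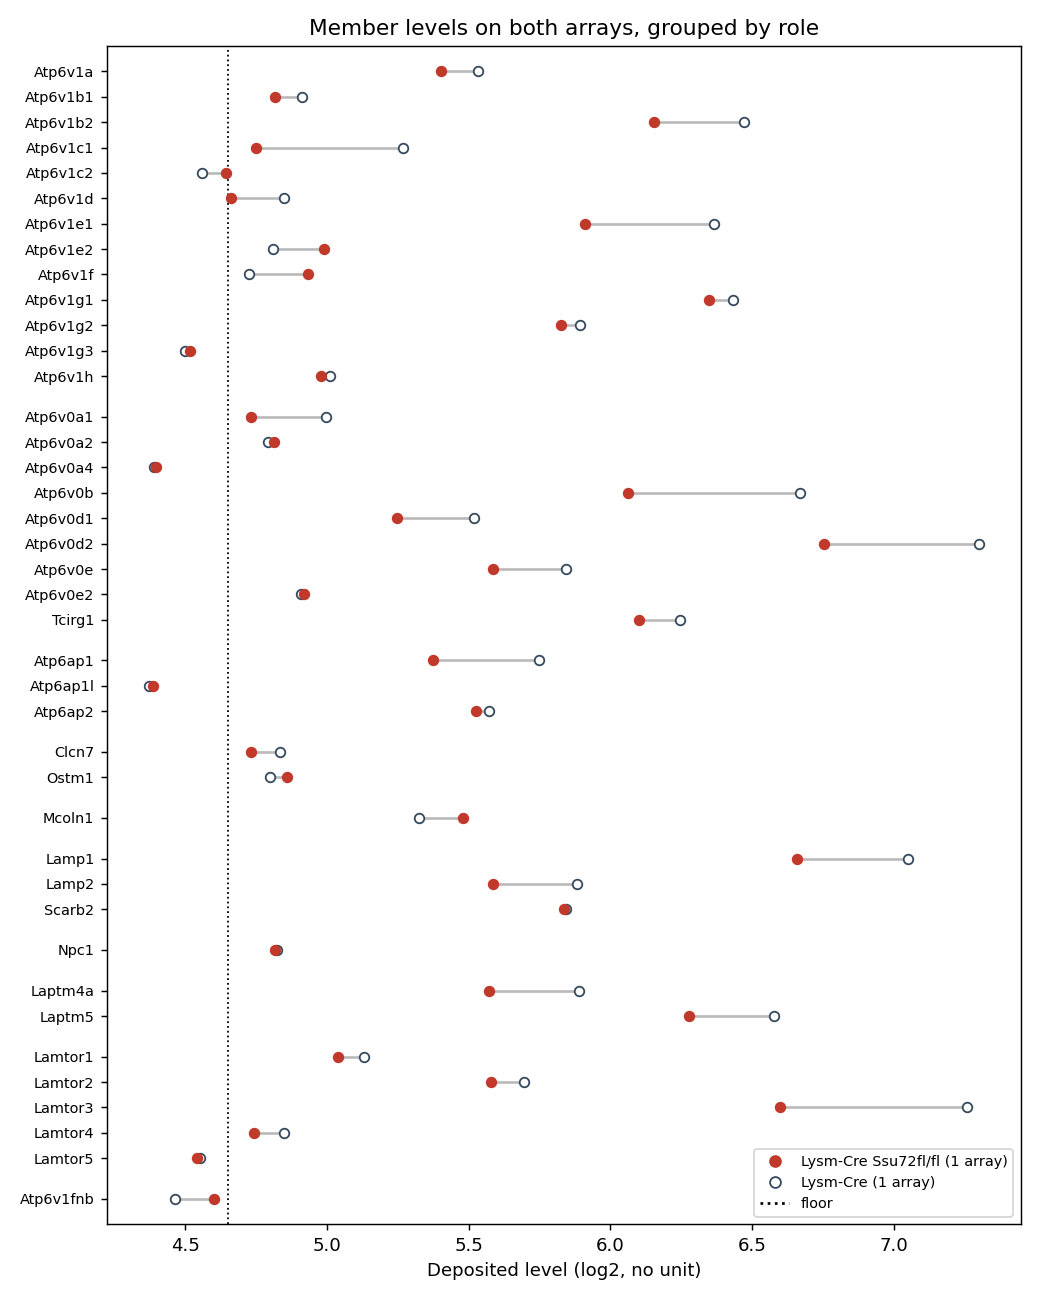
Deposited log2 level of each of the 40 members, grouped by role, on the Lysm-Cre Ssu72fl/fl array (filled) and the Lysm-Cre array (open), with 1 array per genotype and the floor of 4.65 dotted. In 28 of the 34 members above the floor the filled point lies left of the open one on this deposited scale, and 6 members lie below the floor on both arrays.

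The size of a difference has to be read against the level of the gene, because genes with higher signal were lower on the Lysm-Cre Ssu72fl/fl array as a whole. Named genes with a mean level of 5 to 6 had a median difference of -0.031, and 56.5% of 4463 were lower. At 6 to 7 the median was -0.19 with 71.0% of 590 lower, and at 7 to 8 it was -0.42 with 88.2% of 153 lower. The scatter between genes, given as a robust SD (a scaled median absolute deviation), was 0.095 below level 5, 0.19 at 5 to 6, 0.32 at 6 to 7 and 0.30 at 7 to 8. It describes genes on these 2 arrays and not animals. Below level 5 it includes genes above the floor on 1 array only, whose other value was set to the floor. Their differences are made smaller by this, so the SD of 0.095 may be too small for genes above the floor on both arrays. A second value, called trend-adjusted here, is the difference minus a smooth curve of difference against level that was fitted on all features.

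In each range of level that held members, a larger share of members than of named genes was lower, but only 1 member, Atp6v0d2, lay above level 7. Of 13 members at levels 5 to 6, 12 were lower, with a median of -0.13. All 8 members at levels 6 to 7 were lower, with a median of -0.35. The 12 below level 5 were divided 7 lower to 5 higher, with a median of -0.020, where 46.5% of named genes were lower. Of the 34 compared members, 25 lay below the median of named genes in their own range of level, against 50% of named genes. More than 1 robust SD below that median were 13 members, against 17.2% of named genes. Above it by more than 1 robust SD were 2, against 15.9%. The named genes include some above the floor on 1 array only, with differences made smaller by the floor. All 34 compared members were above it on both arrays, so these shares of named genes may be too low beside them. Here and below, the median at a gene's level is that of its whole range. The trend curve falls within a range, from -0.18 at level 6 to -0.41 at level 7. A member high in its range is thus set against genes of lower signal. Trend-adjusted, Atp6v1b1 (-0.085), Atp6v0e (-0.14), Lamp2 (-0.18) and Lamtor3 (-0.27) were within the robust SD of their range. Mcoln1 (0.21) was then past the robust SD of its range on the higher side. The trend-adjusted median was -0.061, with 23 members lower and 11 higher, while 45.6% of named genes were lower, and no member was then 1.5-fold different in either direction. Quantile normalization of the arrays gave a median of -0.068, with 22 of 34 lower and again no member past 1.5-fold.

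**Figure D2:**
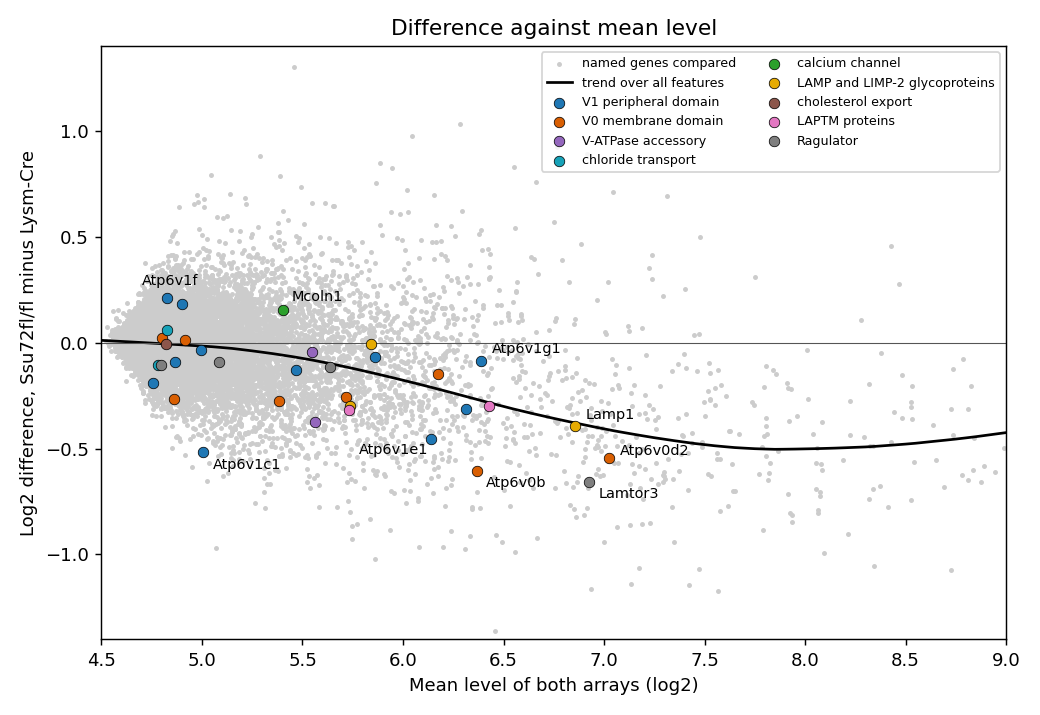
Log2 difference, Lysm-Cre Ssu72fl/fl minus Lysm-Cre, against the mean level of both arrays, for named genes (grey) and the 34 compared members (coloured by role), with the trend over all features as a line. The axes leave 56 of the 13015 genes outside the frame. Atp6v1c1, Atp6v0b and Lamtor3 lie below the line, Lamp1 lies close to it, and Mcoln1 and Atp6v1f lie above it.

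In the V1 domain 11 subunit genes were compared, and on the deposited scale 9 were lower and 2 higher (median -0.094). The trend-adjusted median was -0.061, with 7 lower and 4 higher. Atp6v1c1 encodes subunit C, which bridges the peripheral domain to the membrane domain and leaves the pump when it disassembles. It was at 4.75 on the Lysm-Cre Ssu72fl/fl array and 5.27 on the Lysm-Cre array, a difference of -0.52. It was -0.50 both trend-adjusted and after quantile normalization, and its gap of -0.49 to the median at its level is more than the robust SD of 0.19 there. The Lysm-Cre Ssu72fl/fl value lies close above the floor, and with the floor raised to the 75th percentile the difference was -0.30.

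Subunits E and G form the outer stalks that hold the catalytic head still. Atp6v1e1, the general E isoform, was at 5.91 on the Lysm-Cre Ssu72fl/fl array and 6.37 on the Lysm-Cre array (-0.46; -0.25 trend-adjusted). Atp6v1g1, the general G isoform, was at 6.35 and 6.43 in the same order (-0.086), and its direction depended on scaling, with 0.19 trend-adjusted and 0.17 after quantile normalization. The difference was larger for the E gene than for its stalk partner.

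The catalytic head alternates subunits A and B. Atp6v1b2, the general B isoform, was at 6.15 on the Lysm-Cre Ssu72fl/fl array and 6.47 on the Lysm-Cre array (-0.32; -0.061 trend-adjusted). Atp6v1a, the ATP-hydrolysing subunit, was at 5.40 on the Lysm-Cre Ssu72fl/fl array and 5.53 on the Lysm-Cre array (-0.13; -0.062 trend-adjusted). Both differences lie within the robust SD of genes at their level, 0.32 and 0.19.

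The central stalk, which turns inside the head, is made of subunits D and F, and their genes went opposite ways. Atp6v1d was at 4.66 on the Lysm-Cre Ssu72fl/fl array and 4.85 on the Lysm-Cre array (-0.19). Atp6v1f was at 4.93 on the Lysm-Cre Ssu72fl/fl array and 4.72 on the Lysm-Cre array, and its difference of 0.21 was the highest of all compared members. Each differed from the median at its level by more than the robust SD of 0.095, and neither changed direction with scaling (-0.19 and 0.22 trend-adjusted). The Lysm-Cre Ssu72fl/fl value of Atp6v1d lies just above the floor of 4.65. With the floor raised to the 75th percentile of all values (4.97), neither gene was above it on either array, so the contrast rests on low signal. Atp6v1h, the regulatory subunit H, was nearly equal, at 4.98 on the Lysm-Cre Ssu72fl/fl array and 5.01 on the Lysm-Cre array (-0.033).

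In the V0 domain 8 genes were compared, 6 lower and 2 higher, with a median of -0.26 (-0.14 trend-adjusted, with 5 lower and 3 higher). Atp6v0b, which encodes a proton-carrying subunit of the rotor ring, was at 6.06 on the Lysm-Cre Ssu72fl/fl array and 6.67 on the Lysm-Cre array. Its difference of -0.61, or 0.657 times the Lysm-Cre level, became -0.34 when trend-adjusted and -0.36 after quantile normalization. Its distance of -0.41 from the median at its level exceeded the robust SD of 0.32.

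Subunit d caps the rotor ring and has a general isoform, d1, and a second isoform, d2, known from osteoclasts and alveolar macrophages. Atp6v0d2 was at 6.75 on the Lysm-Cre Ssu72fl/fl array and 7.30 on the Lysm-Cre array (-0.55), where named genes of its level had a median of -0.42, and its trend-adjusted difference was -0.13. Atp6v0d1 was at 5.25 on the Lysm-Cre Ssu72fl/fl array and 5.52 on the Lysm-Cre array (-0.27; -0.22 trend-adjusted). On the deposited scale the gap was wider for the macrophage isoform, and against genes of like signal the general isoform stood further below.

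The a subunit forms the proton half-channels and directs pumps to their membranes. Atp6v0a1 was at 4.73 on the Lysm-Cre Ssu72fl/fl array and 4.996 on the Lysm-Cre array (-0.26), with -0.26 after trend adjustment and a robust SD of 0.095 at its level, but with the floor raised to the 75th percentile of all values (4.97) the difference left was -0.027. Tcirg1, the lysosomal and osteoclast a3 isoform, was at 6.10 on the Lysm-Cre Ssu72fl/fl array and 6.25 on the Lysm-Cre array, and its direction depended on scaling (-0.15 deposited, 0.072 trend-adjusted and 0.061 after quantile normalization). Atp6v0a2, an isoform of the Golgi and endosomes, was at 4.81 on the Lysm-Cre Ssu72fl/fl array and 4.79 on the Lysm-Cre array (0.023). The a isoforms thus did not share a direction. The small subunit e gene Atp6v0e was at 5.59 on the Lysm-Cre Ssu72fl/fl array and 5.84 on the Lysm-Cre array (-0.26; -0.14 trend-adjusted).

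The accessory proteins of the pump were divided. Atp6ap1, which is built into the V0 domain during assembly, was at 5.38 on the Lysm-Cre Ssu72fl/fl array and 5.75 on the Lysm-Cre array (-0.37; -0.29 trend-adjusted), more than the robust SD of 0.19 from the median at its level. Atp6ap2, the prorenin receptor, was at 5.53 on the Lysm-Cre Ssu72fl/fl array and 5.57 on the Lysm-Cre array (-0.046), and turned to 0.037 when trend-adjusted.

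Isoforms known mainly from kidney, testis or brain were largely near or below the floor. Of 8 such genes, which do not include the macrophage isoform Atp6v0d2, Atp6v1c2, Atp6v1g3, Atp6v0a4 and Atp6ap1l were below it on both arrays. The 4 compared were Atp6v1b1 (-0.094), Atp6v1e2 (0.18), Atp6v1g2 (-0.068) and Atp6v0e2 (0.010), with a median of -0.029 and 0.050 trend-adjusted. Median centring turned Atp6v0e2 to -0.0016, and Atp6v1g2 was 0.077 when trend-adjusted. The 17 other pump genes, Atp6v0d2 among them, had a median of -0.26 with 15 lower and 2 higher (-0.13 trend-adjusted, with 12 lower and 5 higher). Atp6v1g2, known from brain, was well above the floor on both arrays, at 5.83 on the Lysm-Cre Ssu72fl/fl array and 5.89 on the Lysm-Cre array.

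**Figure D3:**
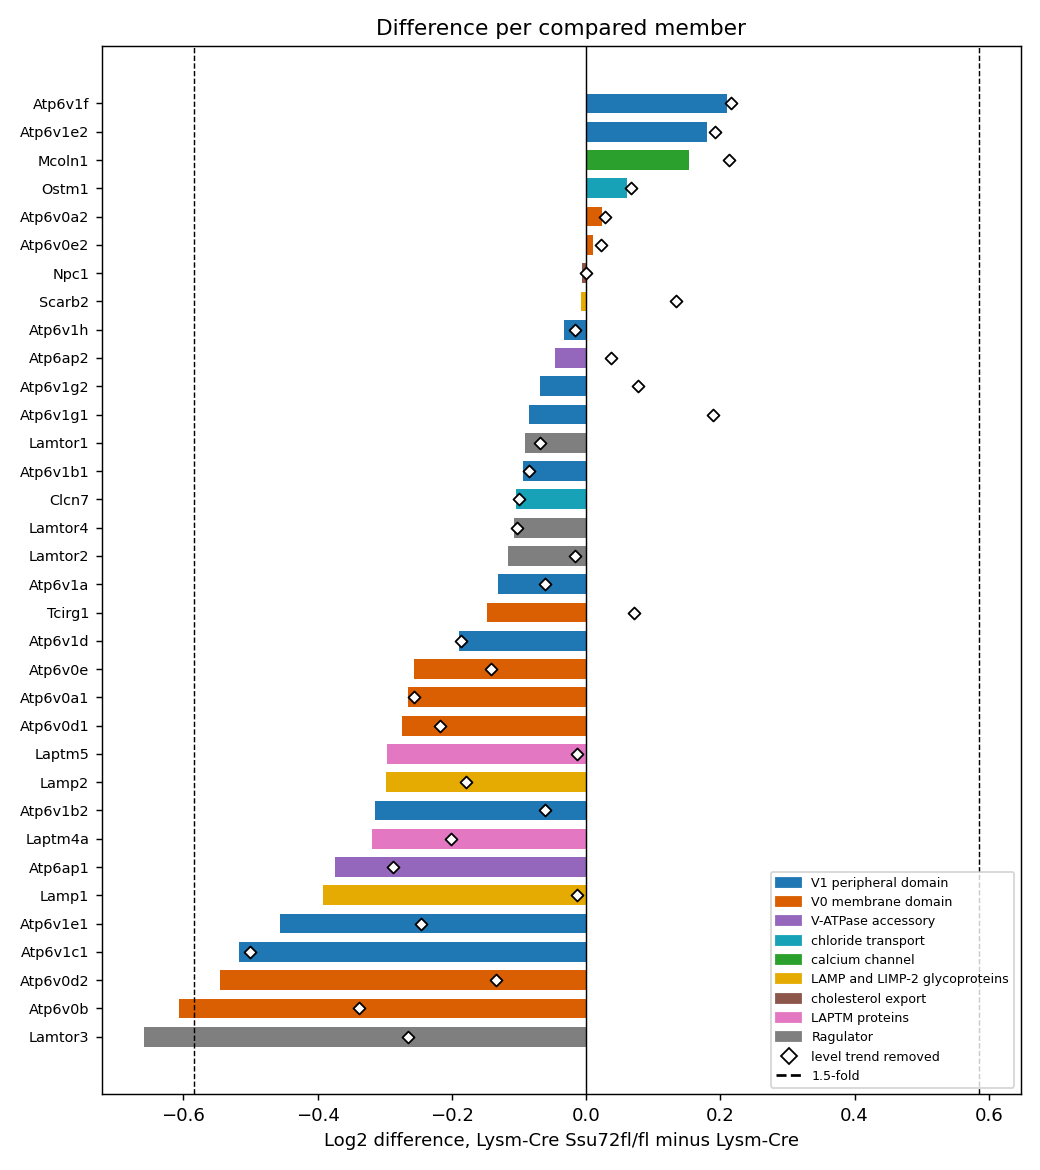
Log2 difference of each of the 34 compared members, Lysm-Cre Ssu72fl/fl minus Lysm-Cre, as bars coloured by role, with the trend-adjusted value as a diamond and 1.5-fold dashed. Lamtor3 (-0.66) and Atp6v0b (-0.61) reach the dashed line on the deposited scale and not when trend-adjusted, and 5 members with bars below 0 have diamonds above it.

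The 4 members that are ion channels or transporters of the lysosomal membrane, or a subunit of one, differed by -0.10 to 0.15. Clcn7 encodes a chloride-proton exchanger, and Ostm1 encodes the subunit that stabilises it. Clcn7 was at 4.73 on the Lysm-Cre Ssu72fl/fl array and 4.84 on the Lysm-Cre array (-0.10), which is -0.11 from the median at its level and past the robust SD of 0.095 there, while Ostm1 was at 4.86 on the Lysm-Cre Ssu72fl/fl array and 4.80 on the Lysm-Cre array (0.060). Mcoln1, the calcium channel that signals lysosomal stress, was at 5.48 on the Lysm-Cre Ssu72fl/fl array and 5.33 on the Lysm-Cre array (0.15; 0.21 trend-adjusted). It was the only one of 13 members at levels 5 to 6 that was higher on the deposited scale. Npc1, which exports cholesterol, was at 4.82 on both arrays (-0.0064).

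The genes of the heavily glycosylated proteins that line the lysosome differed by unlike amounts. Lamp1 was at 6.66 on the Lysm-Cre Ssu72fl/fl array and 7.05 on the Lysm-Cre array (-0.39), and almost all of this was shared by genes of its level, since -0.014 was left after trend adjustment and 0.017 after quantile normalization. Lamp2, which also takes part in chaperone-mediated autophagy, was at 5.59 on the Lysm-Cre Ssu72fl/fl array and 5.88 on the Lysm-Cre array (-0.30). It was -0.27 from the median of genes at levels 5 to 6, past the robust SD of 0.19 there. Its trend-adjusted difference of -0.18 was within that SD. Scarb2 encodes LIMP-2, the carrier of the enzyme glucocerebrosidase. It was at 5.84 on both arrays (-0.0075), and at 0.13 when trend-adjusted. After trend adjustment Lamp1 and Lamp2 were lower and Scarb2 higher.

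The LAPTM genes encode small multispanning proteins of late endosomes and lysosomes. Laptm4a was at 5.57 on the Lysm-Cre Ssu72fl/fl array and 5.89 on the Lysm-Cre array (-0.32; -0.20 trend-adjusted), and stood more than the robust SD of 0.19 below the median at its level. Laptm5, the form of blood cells, was at 6.28 on the Lysm-Cre Ssu72fl/fl array and 6.58 on the Lysm-Cre array (-0.30), with -0.014 left after trend adjustment.

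Ragulator is the adaptor that anchors the Rag GTPases, and through them mTORC1, to the lysosome. All 4 compared subunit genes were lower, deposited and trend-adjusted, with medians of -0.11 and -0.085. Lamtor3 was at 6.60 on the Lysm-Cre Ssu72fl/fl array and 7.26 on the Lysm-Cre array (-0.66; -0.27 trend-adjusted). Lamtor2, its direct partner in the complex, was at 5.58 on the Lysm-Cre Ssu72fl/fl array and 5.70 on the Lysm-Cre array (-0.12; -0.017 trend-adjusted). The difference was larger for Lamtor3 than for its partner. Lamtor1, the membrane anchor, was at 5.04 on the Lysm-Cre Ssu72fl/fl array and 5.13 on the Lysm-Cre array (-0.090), Lamtor4 differed by -0.11, and Lamtor5 was below the floor on both arrays.

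Further features were at hand for 5 members. The second feature of Lamtor3 read 4.96 on the Lysm-Cre Ssu72fl/fl array and 5.23 on the Lysm-Cre array, a difference of -0.27 against -0.66 for the feature used. That of Atp6v1b2 differed by -0.15 against -0.32, and that of Ostm1 by 0.051 against 0.060. The further features of Atp6v1g1 and Npc1 were below the floor on both arrays. Where both features could be compared they shared a direction, but for Lamtor3 and Atp6v1b2 the sizes differed by more than 1.5 times, and with the mean of the features taken per gene, 1 member rather than 2 was at least 1.5-fold lower.

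Many lysosomal genes are bound by Tfeb and its relatives Tfe3, Tfec and Mitf through an element built around the letters CACGTG. These factors showed no common direction. Tfeb was at 4.88 on the Lysm-Cre Ssu72fl/fl array and 4.75 on the Lysm-Cre array (0.12), and Mitf was also higher (0.071). Tfe3 was at 5.38 on the Lysm-Cre Ssu72fl/fl array and 5.52 on the Lysm-Cre array (-0.14), and Tfec was lower (-0.21). All 4 kept these directions when trend-adjusted, but Mitf and Tfe3 lay within the robust SD of 0.19 at their level. Tfec was at 4.65 on the Lysm-Cre Ssu72fl/fl array, barely above the floor.

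Promoter windows, from 250 bases before to 50 after an annotated start, were found for 31 members in RefSeq (GRCm38.p6), with 35 windows in all. For Atp6v0b, Atp6v1a and Clcn7 the start of the window shown is not at the boundary of the gene. CACGTG, which reads the same on both strands, was present in 9 of these 31 genes (29.0%) and in 8.09% of all 27025 genes with windows. The longer form TCACGTGA, which contains it, was present in 5 of 31 (16.1%) and in 1.12% of all genes. The stretches around the matches are shown because the match is a sequence feature that these 9 members share and the other members with windows lack. They are written 5′ to 3′ on the strand of the gene, with each match in capitals.
Lamp1 (chr8:13159088-13159160, plus strand): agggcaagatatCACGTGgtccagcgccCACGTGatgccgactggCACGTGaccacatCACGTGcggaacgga
Mcoln1 (chr8:3500436-3500491, plus strand): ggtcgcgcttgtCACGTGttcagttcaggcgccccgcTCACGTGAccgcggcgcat
Clcn7 (chr17:25133364-25133415, plus strand): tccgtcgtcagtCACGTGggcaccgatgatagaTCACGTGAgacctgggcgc
Atp6v0b (chr4:117887330-117887377, minus strand): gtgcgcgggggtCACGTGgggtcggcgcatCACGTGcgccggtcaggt
Lamtor4 (chr5:138255350-138255395, plus strand): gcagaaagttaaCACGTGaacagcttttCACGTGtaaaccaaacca
Lamtor1 (chr7:101905757-101905786, plus strand): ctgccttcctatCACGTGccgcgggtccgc
Atp6v1a (chr16:44139373-44139402, minus strand): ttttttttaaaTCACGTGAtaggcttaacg
Atp6v0d1 (chr8:105566050-105566079, minus strand): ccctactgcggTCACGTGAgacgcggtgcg
Atp6v0e (chr17:26676387-26676416, plus strand): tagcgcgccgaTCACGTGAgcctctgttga

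Lamp1 held 4 matches, the first beginning 61 bases and the last 15 bases before its start, and Mcoln1, Clcn7, Atp6v0b and Lamtor4 held 2 each. The match of Atp6v0d1 spans the start itself. These matches are letters in a window and not measured binding. By expression, the 9 members with CACGTG had a median difference of -0.13 with 8 lower, and the 17 compared members whose windows lack it had -0.12 with 13 lower. Trend-adjusted medians were -0.10 with the match and -0.014 without it. Members with a match ranged from Atp6v0b, at -0.61, to Mcoln1, at 0.15.

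Lists of other genes of the pathway gave medians nearer 0 for pump assembly and for mTORC1, but their signal was low. Median levels of the compared genes were 4.84 and 4.88 on the Lysm-Cre Ssu72fl/fl array and 4.76 and 4.81 on the Lysm-Cre array. Trend-adjusted medians were -0.0091 for pump assembly and 0.0023 for mTORC1. The members below level 5 had a median of -0.020, or -0.0084 when trend-adjusted. Of 7 compared genes of V-ATPase assembly and its regulators 5 were lower, with a median of -0.029, from Dmxl2 (-0.34), a scaffold of pump assembly, to Meak7 (0.14). Of 15 genes of mTORC1 and its lysosomal regulators 8 were lower, with a median of -0.0081. Mtor, the kinase itself, was at 4.81 on the Lysm-Cre Ssu72fl/fl array and 5.09 on the Lysm-Cre array (-0.28). Rragc, a Rag GTPase that binds Ragulator, was also lower (-0.25), while Rraga (0.14) and Nprl2 (0.29), a brake on mTORC1, were higher.

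Further genes of the lysosomal membrane, with some of lysosomal enzyme sorting among them, had a median closer to that of the members. Of 32 compared 21 were lower, with a median of -0.092 (-0.064 trend-adjusted, with 18 lower). Cd68, a macrophage lysosomal glycoprotein related to the LAMPs, was at 6.86 on the Lysm-Cre Ssu72fl/fl array and 7.43 on the Lysm-Cre array (-0.57; -0.14 trend-adjusted). Mcoln3, a channel related to Mcoln1, was at 5.11 on the Lysm-Cre Ssu72fl/fl array and 5.65 on the Lysm-Cre array (-0.54; -0.48 trend-adjusted), so the channel genes Mcoln1 and Mcoln3 went opposite ways. Of the genes above the floor on both arrays, Gnptab (0.091) and Mfsd12 (0.088) were highest. Of 16 genes of lysosome fusion and positioning 10 were lower, with a median of -0.16 (-0.11 trend-adjusted). The lowest were Vps39 (-0.47) and Vps41 (-0.38), the subunits that set the HOPS tethering complex apart from other Vps assemblies, and the highest was Borcs6 (0.34), of the complex that moves lysosomes outward.

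**Figure D4:**
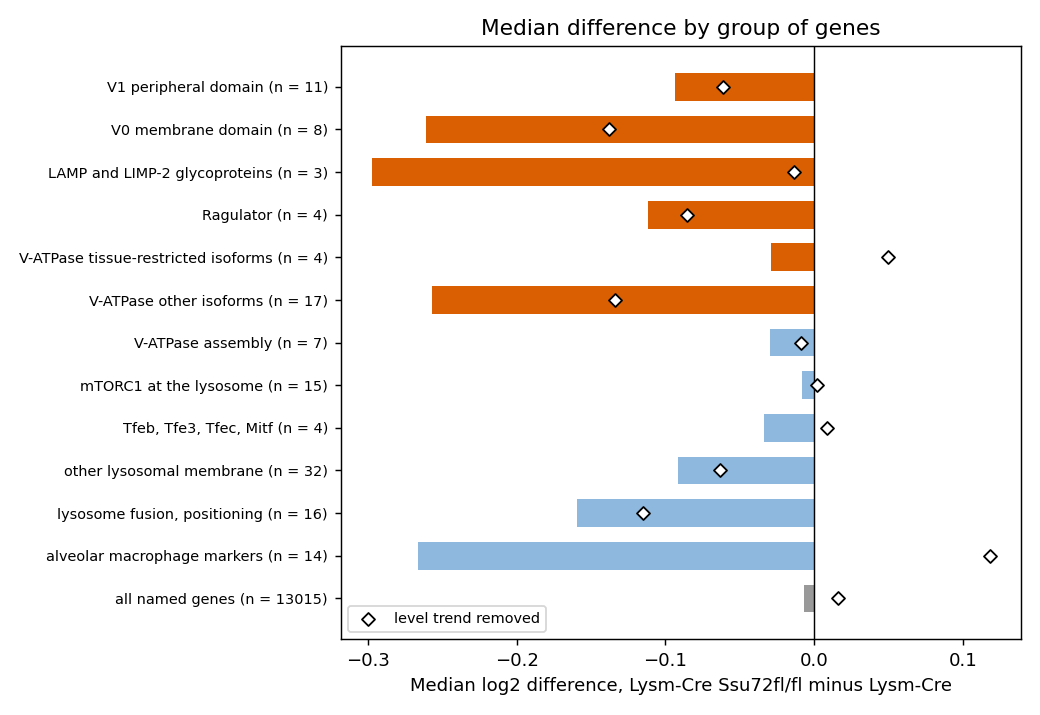
Median log2 difference, Lysm-Cre Ssu72fl/fl minus Lysm-Cre, of groups of members (orange), of other pathway lists and alveolar macrophage markers (blue) and of all named genes (grey), as bars, with trend-adjusted medians as diamonds and n compared in brackets. The tissue-restricted isoforms (of kidney, testis or brain) are at -0.029 and the other pump isoforms, Atp6v0d2 included, at -0.26, and alveolar macrophage markers are at -0.27, or 0.12 when trend-adjusted.

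Markers of the labelled cell type were present: all 14 of the 16 listed that were on the array lay above the floor on both arrays. Presence alone does not set this type apart, since 11 of 12 epithelial and 9 of 10 endothelial and fibroblast markers also did. Of all 22180 named genes, 13015 were above the floor on 1 or both arrays. On the Lysm-Cre Ssu72fl/fl array the 14 had a median level of 6.48, against 5.45 for compared epithelial markers. The lowest of the 14 was at 5.09 there, not far above the floor of 4.65. The highest levels there were 9.30 (labelled type), 8.35 (epithelial) and 8.65 (dendritic cell). Of the 14 genes of the labelled type 13 were lower, with a median of -0.27, the same direction as the members. Their trend-adjusted median, however, was 0.12, with 6 of 14 lower. Their summed level on the linear scale was 2012 on the Lysm-Cre Ssu72fl/fl array and 2378 on the Lysm-Cre array. Markers of interstitial macrophages and monocytes moved with the members as well, with 12 of 13 lower and a median of -0.39 (-0.28 trend-adjusted). Their sums were 1163 on the Lysm-Cre Ssu72fl/fl array and 1830 on the Lysm-Cre array. Such a sum weighs genes of high level most, and the MHC class II gene H2-Ab1 was at 8.19 and 9.26 in the same order (-1.07). H2-Aa, also of MHC class II, differed by -0.86. Cd14 differed by -0.053 (0.27 trend-adjusted), and Folr2 was higher (0.12). Lower too were 9 of 11 epithelial, 7 of 9 endothelial and fibroblast, 4 of 4 dendritic cell and 6 of 6 neutrophil markers, with medians of -0.10, -0.076, -0.067 and -0.074. Trend-adjusted medians were -0.052, -0.051, -0.014 and -0.064 in the same order, with 7, 7, 3 and 6 lower. The compared neutrophil markers were near the floor, at 4.66 to 5.04 on the Lysm-Cre Ssu72fl/fl array. All 3 compared lymphocyte markers were higher (median 0.17), 2 of them above the floor on both arrays. The 1 erythroid marker compared, Slc4a1, differed by 0.012. The part of these cell types in the member differences was not tested.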

How the data were processed

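The values are log2 expression levels processed by the authors, 1 per array feature, and the log2 scale was inferred from their range of 4.23 to 13.5. Per the submitters' processing notes MAS5 was used, with no role stated; background correction, normalization and offset are not stated. An offset would shrink differences at low signal. Column medians were 4.66 (Lysm-Cre Ssu72fl/fl) and 4.65 (Lysm-Cre), and 99th percentiles 7.66 and 8.05.

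Of 33793 features, 23521 carried 1 symbol in the platform annotation, 1814 several and 8458 none. Symbols were updated through the Entrez identifier for 23328. Each gene took its feature with the highest mean. Values below the floor, the 50th percentile of all values, were set to it. The trend curve was a lowess (span 0.3) on medians of level bins 0.1 wide with at least 10 features, computed with Python 3.11.15, pandas 2.3.3 and statsmodels 0.14.6, and tested on simulated data. Of 177 genes in the pathway and marker lists, 163 were on the array. The members and lists were chosen with earlier results of these data known. All members could be named; from each further list, up to 2 genes at each end of the differences, plus Ssu72, Tfeb, Tfe3, Tfec and Mitf. Alternatives were median centring, quantile normalization, trend removal, other floors, the mean of a gene's features and other folds.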

Additional observations from a re-analysis of the deposited data

How the results depend on the processing

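On the deposited scale 28 of 34 members were lower; the count was 22 of 34 after quantile normalization, 23 of 34 with either trend removed, 29 of 34 with median centring, 27 of 34 with the mean of features per gene, 29 of 38 and 23 of 25 with the floor at the 25th and 75th percentiles, and 29 of 40 with no floor. Of all named genes compared, between 45.6% and 57.5% were lower in these settings. The median difference of -0.12 became -0.068 after quantile normalization, -0.061 with the level trend removed and -0.26 with a floor at the 75th percentile (25 members compared), where Atp6v1c1 (-0.30), Atp6v0a1 (-0.027) and Atp6v1e2 (0.021) were nearer 0. The count of members at least 1.5-fold lower, 2, became 0 after quantile normalization, 0 with the level trend removed, 0 with a trend fitted on protein-coding genes alone (added after the data were seen, median -0.084) and 1 with the mean of features per gene. It was 7 at a threshold of 0.322 on the log2 scale, where 6.23% of named genes of all levels were called, and 0 at 2-fold. None was past the fold on the higher side in any setting. Over all named genes, 178 were 1.5-fold lower and 41 higher on the deposited scale, against 43 and 98 after quantile normalization and 40 and 102 with the trend removed; the cause was not tested. Of the 34 single differences, 6 changed sign after quantile normalization, 5 with the trend removed, 1 with median centring and 1 with the mean of features per gene. No paired analysis was possible because each genotype has 1 array. The depth of the signal limits genes near the floor, where 12 of the compared members lie below level 5.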
